A study of Mus musculus with 6 samples.

Results

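Transcripts of 10 heat shock chaperone genes, cytosolic and mitochondrial, were followed in CFPAC-1 cells after transfection with a siRNA against KRT7. CFPAC-1 is an established human pancreatic adenocarcinoma (PAAD) line of ductal origin. The genes were taken by Ensembl identifier as a fixed list: HSPA1A (ENSG00000204389), HSPA1B (ENSG00000204388), HSPA8 (ENSG00000109971), HSPH1 (ENSG00000120694), HSP90AA1 (ENSG00000080824), HSPB1 (ENSG00000106211), HSPD1 (ENSG00000144381), HSPE1 (ENSG00000115541), DNAJB1 (ENSG00000132002) and BAG3 (ENSG00000151929). This list was chosen with earlier results of these data known, so the shares of all genes given below are descriptions. All 10 were among the 30543 genes of the count table, and all 10 were among the 15736 genes kept after the filter on low counts. Poly(A) RNA was sequenced from 3 libraries of cells given a negative control siRNA (si-Control) and 3 libraries of cells given a KRT7 siRNA (si-KRT7). Both groups were the same cell line and both were transfected, and which KRT7 duplex was used for these libraries is not given in the sources used here. The labels number the libraries 1 to 3 in each group and do not say that they came from separate cultures, so p-values measure only the spread between these libraries, which may be technical. The organism field of the labels reads Mus musculus, but all 30543 identifiers in the table are human.

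Heat shock proteins are chaperones that bind unfolded polypeptides, keep them from aggregating and help them fold. In the cytosol, HSP70 proteins take up clients from J-domain cochaperones and release them with the help of nucleotide exchange factors, and HSP90 acts later on many signaling proteins. Small heat shock proteins hold unfolding proteins without using ATP. In the mitochondrial matrix, HSP60 forms a folding chamber that HSP10 closes as a lid. Many of these genes are induced together by the transcription factor HSF1 when misfolded protein builds up. In carcinoma cells they are often abundant without any applied stress, and HSPB1 and the HSP70 proteins are also known partners of the keratin and actin cytoskeleton.

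Libraries held between 28208896 and 36315802 counts, with the lowest total in si-KRT7 replicate 2. Over log2 CPM (counts per 1000000 counts of the library, TMM-normalized), the Pearson correlation across genes, which are not independent replicates, was 0.992 between si-KRT7 replicates 1 and 3 and 0.982 between replicate 2 and each of them. Any si-Control libraries had 0.991 to 0.992 with each other, so si-KRT7 replicate 2 stood apart from its group. With each si-Control library replicate 2 had 0.986, above its 0.982 with the other si-KRT7 libraries. Replicates 1 and 3 had 0.983 to 0.986 with the si-Control libraries. The identifier with the largest decrease among called genes of at least 50 counts on average, ENSG00000135480, was down to 12.2%, 18.3% and 12.6% of its control level in the respective si-KRT7 libraries. The table pairs no identifier with a gene name, so this identifier is given without one, and KRT7 and markers of pancreatic ductal and other cell types were not looked up by name. The fits below were made with all 6 libraries and without si-KRT7 replicate 2. In bulk RNA, fewer cells that carry a transcript and less of it per cell cannot be told apart.

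None of the 10 chaperone genes was called in si-KRT7 against si-Control cells with all 6 libraries, and the differences were small. A gene was called at an adjusted p under 0.05 in edgeR's quasi-likelihood test, which held for 2.07% of all genes tested. DESeq2 (7.30% of all genes called) and limma-voom also called 0 of the 10, while limma-voom with sample quality weights, which lets libraries that vary more count for less, called 9, against 43.6% of all genes. At an unadjusted p under 0.05, edgeR gave 5 of the 10 genes (HSPA1A, HSPB1, HSPD1, DNAJB1 and BAG3), against 18.6% of all genes. The fold changes ranged from -0.48 for HSPB1 to 0.22 for HSPD1 on the log2 scale, and their median was -0.12, against 0.01 over all genes. Of the 10 genes, 7 were lower and 3 higher. The median size of the change, 0.17, was close to the 0.18 of all genes. The groups did not overlap for 6 genes, against 24.4% of all genes: 5 were lower in every si-KRT7 library (HSPA1A, HSPA8, HSPB1, DNAJB1 and BAG3; 13.0% of all genes) and HSPD1 was higher in every one (11.3% of all genes). In HSPA1A, HSPA8 and HSPB1, si-KRT7 replicate 2 was only narrowly below the lowest si-Control library. It held 136 against 137 CPM, 1425 against 1440 CPM and 1041 against 1052 CPM. For groups of 3 libraries that do not overlap, an exact permutation of the group labels (two-sided) always gives p = 0.1, the smallest possible. For these 6 it therefore adds nothing to the lack of overlap. The shares are over all genes tested, and the chaperone genes are more abundant than most.

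**Figure D1:**
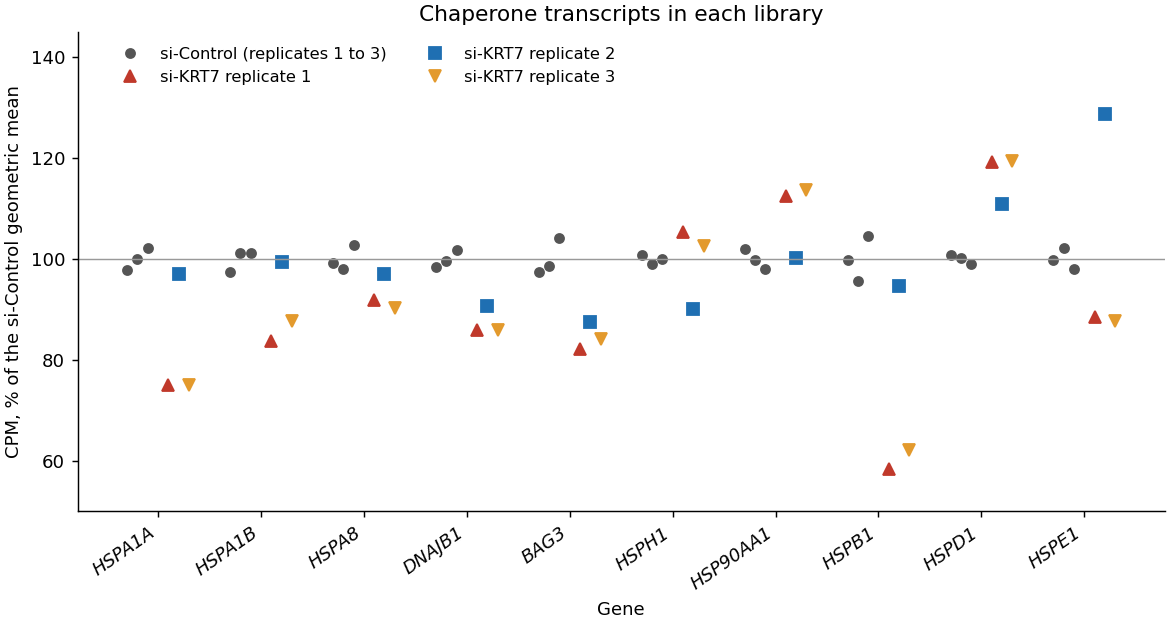
CPM of each chaperone gene in each library, as a percentage of the geometric mean of the 3 si-Control libraries of that gene, with 1 point per library. For HSPB1, si-KRT7 replicate 1 was at 58.4%, replicate 3 at 62.2% and replicate 2 at 94.7%, and for HSPE1 replicate 2 was at 129% with the other si-KRT7 libraries below 100%.

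The inducible HSP70 genes were lower in si-KRT7 replicates 1 and 3 but hardly in replicate 2. HSPA1A and HSPA1B encode nearly the same protein and are the genes most strongly induced by HSF1 in many cell types. For HSPA1A the si-Control libraries held 137, 140 and 143 CPM, and si-KRT7 replicates 1, 2 and 3 held 105, 136 and 105 CPM. Replicate 2 of si-KRT7 thus lay just under the lowest si-Control library, and the other si-KRT7 libraries were far below it. The log2 fold change was -0.28 with a 95% interval of -0.54 to -0.03 (adjusted p = 0.223 in edgeR). For HSPA1B, si-Control libraries held 97.3, 101 and 101 CPM and si-KRT7 libraries 83.6, 99.1 and 87.5 CPM, with a log2 fold change of -0.15 (-0.35 to 0.05). Here replicate 2 lay inside the si-Control range, as it did for HSP90AA1 and for 26.4% of all genes. Reads of these near-identical genes may be divided between them by the counting, and with the counts of both summed the log2 fold change was -0.22 (adjusted p = 0.263 in edgeR) with all 6 libraries and -0.33 (adjusted p = 3.11e-08) without replicate 2.

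HSPA8 encodes HSC70, the constitutive HSP70 that folds new proteins and uncoats clathrin vesicles in unstressed cells. The si-Control libraries had 1457, 1440 and 1512 CPM of HSPA8, and those of si-KRT7 had 1351, 1425 and 1327 CPM. All si-KRT7 libraries were below all si-Control libraries, but replicate 2 by a narrow margin. The log2 fold change of HSPA8 was -0.10 (-0.25 to 0.04), smaller than that of HSPA1A.

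Of the HSP70 helpers, DNAJB1 and BAG3 were lower in every si-KRT7 library, replicate 2 included. DNAJB1, a J-domain protein of the HSP40 family that delivers clients to HSP70, had 242, 245 and 250 CPM in si-Control against 211, 223 and 211 CPM in the si-KRT7 libraries. BAG3, a nucleotide exchange factor that couples HSP70 clients to autophagy, had 230, 233 and 246 CPM against 194, 207 and 199 CPM. In both genes the si-KRT7 libraries formed a tight group, 246 ± 4.15 against 215 ± 6.81 CPM (SD, n = 3) for DNAJB1 and 236 ± 8.27 against 200 ± 6.32 CPM (SD, n = 3) for BAG3. BAG3 had the lowest adjusted p of the 10 genes with all libraries, 0.121 in edgeR, at a log2 fold change of -0.24 (-0.40 to -0.08), and DNAJB1 had -0.19 (-0.35 to -0.04, adjusted p = 0.179 in edgeR).

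HSPH1, the HSP110 protein that also exchanges nucleotide on HSP70, did not follow them. Its levels were 113, 111 and 112 CPM in the si-Control libraries and 118, 101 and 115 CPM after KRT7 knockdown. Replicates 1 and 3 were slightly above and replicate 2 below every si-Control library. The log2 fold change was -0.01, with an interval of -0.20 to 0.18, which does not show that the level was the same in both groups.

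HSPB1, the small heat shock protein HSP27, had the largest difference. Its si-Control libraries held 1098, 1052 and 1150 CPM, and its si-KRT7 libraries 642, 1041 and 684 CPM in replicates 1, 2 and 3. Replicates 1 and 3 were at 58.4% and 62.2% of si-Control, while replicate 2 was at 94.7%, barely under the lowest si-Control library. The spread among si-KRT7 libraries, 0.70 on the log2 scale from lowest to highest, was larger than the log2 fold change of -0.48 (-0.86 to -0.10, adjusted p = 0.181 in edgeR). HSP90AA1, the stress-inducible HSP90 that stabilizes kinases and steroid receptors, was higher in the same libraries. Its level was 1183, 1156 and 1137 CPM under si-Control against 1304, 1162 and 1317 CPM under si-KRT7, with a log2 fold change of 0.12 (-0.04 to 0.29, adjusted p = 0.411 in edgeR). Replicate 2 lay inside the si-Control range and the other si-KRT7 libraries above it.

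The mitochondrial chaperonin genes HSPD1 and HSPE1 are neighbors that share a bidirectional promoter, and they are usually induced together. HSPD1, which encodes HSP60, held 579, 576 and 569 CPM in si-Control and 685, 637 and 686 CPM in si-KRT7 replicates 1, 2 and 3. It was higher in every si-KRT7 library, replicate 2 included, with a log2 fold change of 0.22 (0.07 to 0.37, adjusted p = 0.131 in edgeR). HSPE1, which encodes HSP10, held 29.2, 29.9 and 28.7 CPM in si-Control and 25.9, 37.7 and 25.7 CPM in si-KRT7 replicates 1, 2 and 3. Replicate 2 was thus the highest of the 6 libraries and replicates 1 and 3 were the lowest, and the log2 fold change was 0.02 with a wide interval (-0.33 to 0.37). HSPE1 had the lowest mean count of the 10 genes, 964 per library. It overlaps an annotated readthrough gene with MOB4 and has many processed pseudogenes, as HSPD1, HSPA8 and HSP90AA1 have too. How the authors assigned reads in such places is not given in the sources used here, so these levels are uncertain.

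Without si-KRT7 replicate 2, 9 of the 10 chaperone genes were called in edgeR, 7 lower and 2 higher in si-KRT7 cells. All genes were called far more often as well, 42.9% of those tested (22.0% lower and 20.9% higher). Among genes with a mean count of at least that of HSPE1, the chaperone with the lowest, the share was 69.2%, so most genes as abundant as these chaperones were called too. In this fit HSPB1 fell by 0.73 on the log2 scale (-0.81 to -0.66, adjusted p = 3.74e-13 in edgeR) and HSPA1A by 0.42 (-0.50 to -0.34, adjusted p = 7.41e-09 in edgeR). In the omitted replicate 2, the log2 ratios to si-Control were -0.08 for HSPB1 and -0.04 for HSPA1A, outside these intervals. BAG3, DNAJB1, HSPA1B, HSPE1 and HSPA8 also fell, with log2 fold changes of -0.27, -0.22, -0.22, -0.19 and -0.14. HSPD1 rose by 0.25 (0.19 to 0.31, adjusted p = 2.63e-07 in edgeR) and HSP90AA1 by 0.17 (0.12 to 0.23, adjusted p = 2.45e-05 in edgeR). HSPH1 was not called, at 0.05 (-0.03 to 0.13, adjusted p = 0.316 in edgeR). None of the 10 genes combined a call with a log2 fold change over 1 in either direction. Of all genes, 0.292% did so with all libraries and 2.20% without replicate 2.

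Leaving out any other library gave 0 called chaperone genes, but few genes of any kind were called there. The share of all genes was 0.0372% without si-Control replicate 1 and also without replicate 2, 0.0616% without si-Control replicate 3, 0.542% without si-KRT7 replicate 1 and 0.223% without si-KRT7 replicate 3. The DESeq2 Wald test without replicate 2 called 8 of the 10, against 39.1% of all genes, and HSPE1 was not called there (adjusted p = 0.0622). Over all alternatives the adjusted p of HSPB1 ran from 2.43e-83 to 0.462, that of HSPA1A from 1.24e-19 to 0.542, that of HSPD1 from 9.34e-20 to 0.436, that of HSP90AA1 from 2.46e-10 to 0.754, that of HSPE1 from 0.0302 to 0.998 and that of HSPH1 from 0.305 to 0.989. In the fit with quality weights, si-KRT7 replicate 2 had a weight of 0.0973 and the other libraries 1.2 to 2.11. Apart from HSPB1, the chaperone genes were called only in fits that left this library out or gave it this low weight, and it was singled out with its values known. With no filter on low counts, HSPB1 alone was called with all 6 libraries (adjusted p = 3.68e-06 in edgeR), against 4.41% of all genes. Its log2 fold change there was -0.49, near the -0.48 of the main fit, but its standard error was 0.0878 against 0.168. The counts of HSPB1 were the same in both fits, so its libraries were no closer together. What lowered the standard error was not tested.

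**Figure D2:**
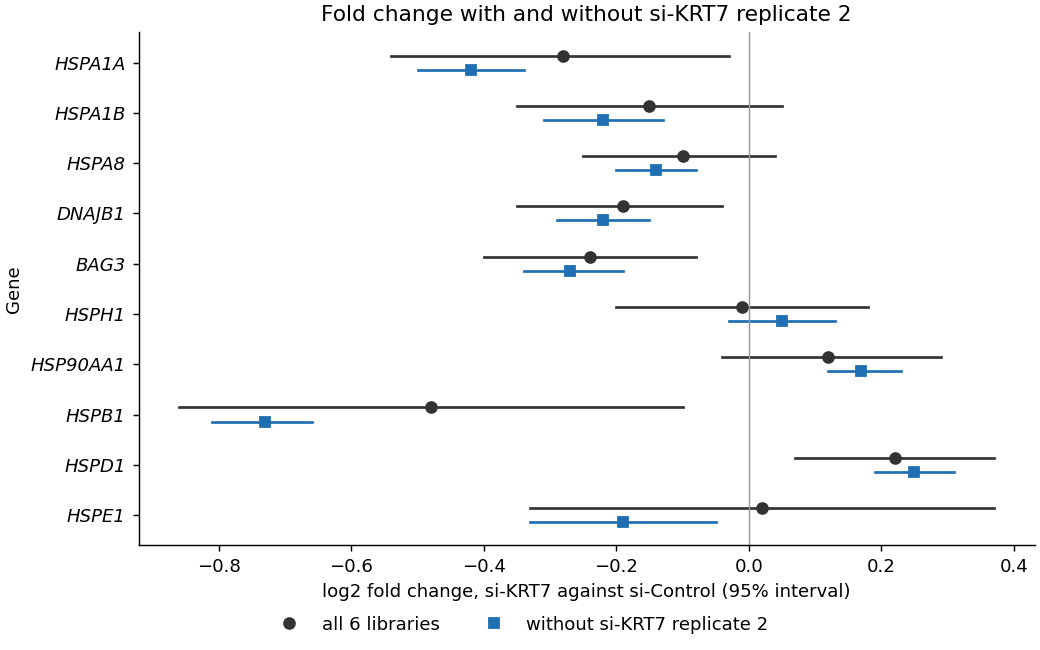
Log2 fold change of si-KRT7 against si-Control with its 95% interval from edgeR, with all 6 libraries (circles) and without si-KRT7 replicate 2 (squares). Without replicate 2 the interval of HSPB1 narrowed from between -0.86 and -0.10 to between -0.81 and -0.66, and HSPE1 moved from 0.02 to -0.19.

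Replicates 1 and 3 of si-KRT7 lay on the same side of the si-Control range for all 10 chaperone genes, against 61.5% of all genes. They were both below it for 7 genes (31.2% of all genes) and both above it for 3 (30.2% of all genes). Replicate 2 was farther from replicates 1 and 3 than these were from each other in all 10 genes, which held for 68.0% of all genes. These shares are descriptions, since replicate 2 has no replicate of its own. They are over genes of any abundance, while the chaperone genes are more abundant than most. The part of abundance in these shares, and in those that follow, was not tested. Its low total count is named above, and the part of depth in its position was not tested.

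The position of replicate 2 differed between chaperone genes. For each gene, its log2 ratio to the si-Control mean was divided by the mean log2 ratio of replicates 1 and 3, so that 0 is the si-Control mean and 1 is the level of the other si-KRT7 libraries. In HSP90AA1, HSPA1B, HSPA1A, HSPB1 and HSPA8 replicate 2 stood at a fraction of 0.0246, 0.0348, 0.105, 0.108 and 0.33, nearer to si-Control. Among genes with replicates 1 and 3 on the same side, 20.7% did so. In HSPD1, DNAJB1 and BAG3 the fraction was 0.582, 0.643 and 0.726, nearer to the other si-KRT7 libraries, as in 29.1% of such genes. In HSPH1 and HSPE1 replicate 2 was on the opposite side of the si-Control mean, as in 50.2% of such genes, and it was the highest of the 6 libraries for HSPE1 (27.6% of all genes) and the lowest for HSPH1 (26.4% of all genes). With library size only in place of TMM, 3 of the 10 genes changed place: HSPA8 had a fraction of 0.769 and HSPD1 of 0.413, and HSP90AA1 was just on the opposite side, at -0.0918. HSPA1B then lay below the si-Control range in replicate 2. The range among the si-KRT7 libraries was 0.0785 on the log2 scale for DNAJB1, 0.0903 for BAG3, 0.103 for HSPA8 and 0.107 for HSPD1, the 4 smallest, and was largest for HSPB1.

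**Figure D3:**
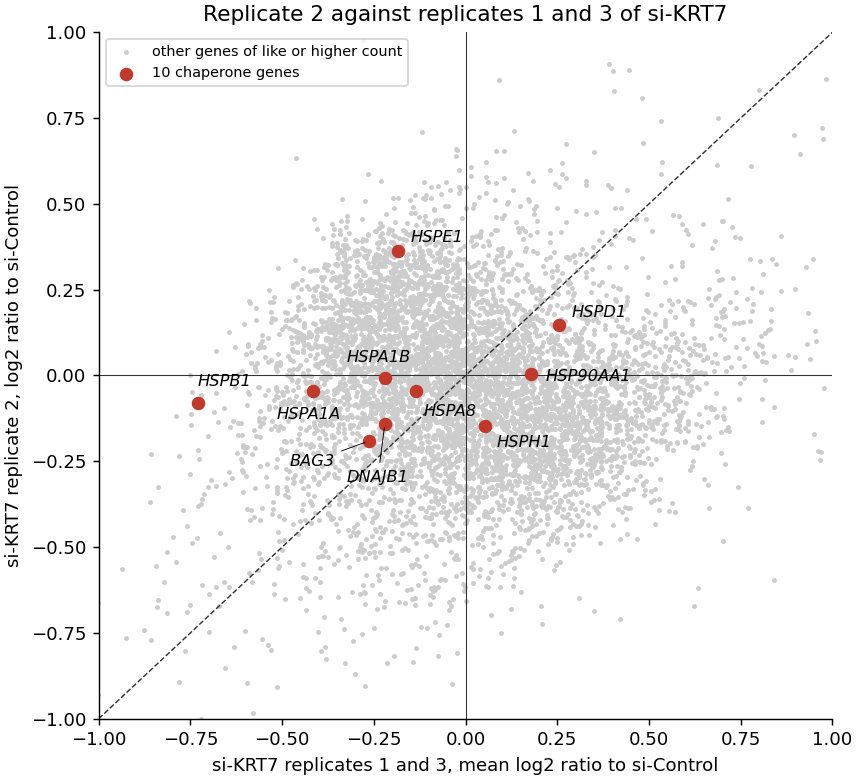
Log2 ratio to the si-Control mean in si-KRT7 replicate 2 against the mean of replicates 1 and 3, for the 10 chaperone genes (red) and 6364 other genes with a mean count of at least that of HSPE1 (grey, 31 of them outside the plotted range). The dashed line marks equal ratios: BAG3, DNAJB1, HSPA8 and HSPD1 lie nearest to it, HSPB1 and HSPA1A lie far to the left near a vertical value of 0, and HSPE1 lies above 0 on the left side.

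Ratios of read counts inside a library do not depend on normalization. They are ratios of reads, not of molecules, since gene length was not used. HSPD1 had 19.8, 19.2 and 19.8 reads per read of HSPE1 in si-Control replicates 1, 2 and 3, and 26.5, 16.9 and 26.7 in those of si-KRT7. Replicates 1 and 3 of si-KRT7 were thus above, and replicate 2 below, every si-Control library for these genes with a shared promoter. HSP90AA1 had 1.08, 1.10 and 0.989 reads per read of HSPB1 in si-Control and 2.03, 1.12 and 1.93 in si-KRT7. For HSPA1A the reads per read of HSPA1B were 1.41, 1.39 and 1.42 in si-Control and 1.25, 1.37 and 1.20 in si-KRT7. In the last pair, of nearly identical genes, si-KRT7 replicates 1 and 3 were below si-Control. Replicate 2, at 1.37, was only just under the lowest si-Control ratio of 1.39. This ratio also depends on how the counting divided reads between these genes, which is not known. Ratios were also taken for pairs that are not drawn. HSPH1 per HSPA1A was 0.824, 0.797 and 0.783 in si-Control and 1.13, 0.746 and 1.09 in si-KRT7. BAG3 per HSPB1 was 0.21, 0.221 and 0.214 in si-Control and 0.303, 0.199 and 0.291 in si-KRT7. In both, si-KRT7 replicates 1 and 3 were above and replicate 2 below every si-Control library. All these pairs were chosen after their values were seen, and no test was made on them.

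**Figure D4:**
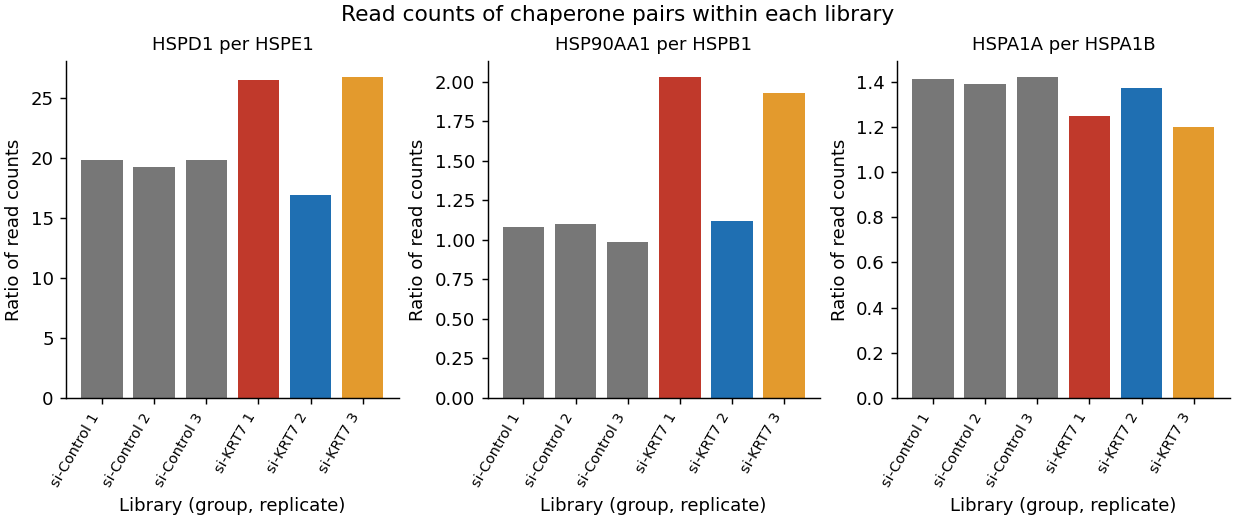
Ratio of read counts of 3 pairs of chaperone genes in each library, with 1 bar per library and axes that start at 0. In si-KRT7 replicates 1 and 3 the ratio of HSP90AA1 to HSPB1 was 2.03 and 1.93, against 1.12 in replicate 2 and 0.989 to 1.10 in the si-Control libraries.

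Added over the 10 genes, the chaperones took 0.513%, 0.507% and 0.517% of all reads in si-Control replicates 1, 2 and 3 and 0.484%, 0.494% and 0.485% in those of si-KRT7. The normalized sum was 5166, 5083 and 5248 CPM in si-Control replicates 1, 2 and 3, and 4720, 5068 and 4757 CPM in those of si-KRT7. All si-KRT7 libraries were below si-Control, but replicate 2 by a narrow margin. By group it was 5166 ± 82.5 CPM (SD, n = 3) for si-Control and 4848 ± 191 CPM (SD, n = 3) for si-KRT7. Most of these reads came from HSPA8, HSP90AA1 and HSPB1. From si-Control to si-KRT7, the mean of HSPA8 went from 1470 to 1368 CPM and that of HSP90AA1 from 1159 to 1261 CPM. The mean of HSPB1 went from 1100 to 789 CPM, so most of the difference in the sum came from HSPB1. Within groups, the ranges of the chaperones were smaller at the median than those of all genes: the median range among si-Control libraries was 0.0575 on the log2 scale, against 0.171 over all genes, and among si-KRT7 libraries 0.201 against 0.436. The chaperone genes are also more abundant than most, and the part of abundance in this was not tested.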

How the data were processed

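Transcripts were measured by RNA-seq in 3 si-Control and 3 si-KRT7 libraries of CFPAC-1 cells. The table that the authors deposited holds raw read counts for every gene in each library. The submitters' processing notes name STAR 2.7.11b and the mouse build GRCm39, although all identifiers are human, and the counting tool and annotation are not given in the sources used here. The tests were run in edgeR 4.0.16 under R 4.3.3, as filterByExpr, TMM, glmQLFit and glmQLFTest over 15736 genes, with Benjamini-Hochberg adjustment over all of them. CPM are TMM-normalized. Standard errors were derived from the F statistic, and intervals are approximate 95% intervals. Alternatives used limma 3.58.1 and DESeq2 1.42.0, other scalings and filters, each library left out and the replicate number as a block. On simulated counts with 200 changed genes, edgeR recovered 46% of genes changed 1.5-fold among 15505 genes and 98% changed 2-fold among 15522. The simulation gave every gene and library the same dispersion and set no library apart, so these rates may not hold for the chaperone genes here.

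The 10 genes, their names, the planned lists and the interest in si-KRT7 replicate 2 were chosen with earlier results of these data known. The genes named are all 10 members. The tables of gene names used here are those of the mouse and matched 0 identifiers, so other heat shock, cochaperone, chaperonin and ER chaperone lists, KRT7, cell type markers and sequences were not looked up here.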

Additional observations from a re-analysis of the deposited data

How the results depend on the processing

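The number of chaperone genes called was 0 with all 6 libraries, and stayed 0 with library size only, DESeq2's size factors, the DESeq2 Wald test, limma-voom, the robust fit, at least 10 counts in every library and the replicate block. It was 9 (2 higher, 7 lower) in limma-voom with sample quality weights and 1 (lower) with no filter on low counts. Leaving out each of the 6 libraries in turn, it ran from 0 to 9 (higher 0 to 2, lower 0 to 7), with 9 only without si-KRT7 replicate 2. In 2 fits added after seeing the data, both without that library, the DESeq2 Wald test called 8 (2 higher, 6 lower) and limma-voom 9 (2 higher, 7 lower). Over all genes, 325 were called in edgeR, 1148 in the DESeq2 Wald test, 6858 with quality weights, 1347 with no filter and 76 with the replicate block, and leaving out a library gave 6 to 6944, the highest without si-KRT7 replicate 2. Without it, DESeq2 called 6328 and limma-voom 6934. The biological coefficient of variation was 0.130 with all libraries and 0.0485 without it. The cause was not tested.

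HSPH1, at -0.01, was 0.0146 with library size only, 0.0455 with quality weights and 0.0517, 0.0588 and 0.0525 without si-KRT7 replicate 2 in edgeR, DESeq2 and limma-voom, and ran from -0.0561 to 0.0517 over the fits that left out a library. HSPE1, at 0.02, was -0.0096 in limma-voom, -0.1764 with quality weights, -0.0013 with the replicate block and -0.1878, -0.1808 and -0.1881 without si-KRT7 replicate 2 in the same 3 tools, and ran from -0.1878 to 0.1123 over those fits. No other chaperone gene changed direction in the alternatives run. Under library size only or DESeq2's size factors, CPM moved by at most 2.65%, and 1 of 30 log2 ratios to si-Control changed sign, that of HSP90AA1 in si-KRT7 replicate 2 with library size only. The labels do not say whether the replicate numbers pair the libraries. For numbers 1, 2 and 3, the deviations from the group mean correlated at 0.0737, -0.120 and -0.130 between groups. These values cannot exclude a pairing, since si-KRT7 replicate 2 stood apart and weighs on every deviation in its group. The fits covered all genes kept by the filter. The lists of other chaperones and KRT7 were not read out of them by name, because no identifier was paired with a name.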
